A study of Rattus norvegicus with 24 samples.

Results

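The genes described here are 9 targets of p53 that respond to DNA damage, Mdm2, Cdkn1a, Ccng1, Gadd45a, Bax, Bbc3, Phlda3, Sesn1 and Sesn2, in the lungs of rats that inhaled hexanal. They were chosen by name, and a probe was taken for a gene when its accession matched that gene. Probes were found for 8 of the 9 genes, 10 of 30367 probes in all, and Sesn1 is not analysed here. Each of the 8 genes was well above background on all 24 arrays, so that all 8 were among the 21255 genes or unnamed probes tested. The rats were Fischer-344 rats of both sexes, obtained at 7 to 8 weeks of age, with no genetic change given. Control rats breathed filtered air, and hexanal vapor was given at 600 ppm (low dose), 1000 ppm (middle dose) or 1500 ppm (high dose), with 3 males and 3 females per group. Exposure was for 4 hours a day on 5 days a week in a nose-only chamber. The sample labels give 5 weeks of exposure and the study's methods give 4, and 1 passage of the labels gives the doses in mg per cubic meter, so duration and unit are uncertain. Total RNA of the whole lung was hybridized to Agilent arrays with a single dye. Levels are log2 signals from which the 75th percentile of the array was subtracted.

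p53 is a transcription factor that is stabilized when DNA is damaged, and it then raises the transcription of genes for cell cycle arrest, repair and cell death. It binds pairs of a short palindromic sequence, the p53 half-site. Mdm2, one of its targets, marks p53 for degradation and so closes a feedback loop, and the p53 sites of Mdm2 lie within the gene and not upstream of it. Aldehydes can react with DNA and proteins, and transcripts of p53 targets are commonly read as a sign of a DNA damage response.

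The p53 half-site, 10 bases long and the same on both strands, was looked for in the promoters of the 9 genes, 250 bases before to 50 bases after the start of transcription. RefSeq's promoter table of rat build GRCr8 held 7 of the 9 genes, without Bax and Bbc3. A half-site was found in 4 of them (Cdkn1a, Ccng1, Gadd45a and Sesn1), and 7.98% of all 33469 promoters in the table held one. The promoters of Mdm2, Phlda3 and Sesn2 held none in this window. The 3 measured genes with a match are shown because their levels can be set beside it, with the half-site in capitals and the strand of the gene from 5′ to 3′. Cdkn1a is at chr20:7150682-7150981 on the plus strand, Ccng1 at chr10:25684827-25685126 on the minus strand and Gadd45a at chr4:97486750-97487049 on the minus strand.
Cdkn1a: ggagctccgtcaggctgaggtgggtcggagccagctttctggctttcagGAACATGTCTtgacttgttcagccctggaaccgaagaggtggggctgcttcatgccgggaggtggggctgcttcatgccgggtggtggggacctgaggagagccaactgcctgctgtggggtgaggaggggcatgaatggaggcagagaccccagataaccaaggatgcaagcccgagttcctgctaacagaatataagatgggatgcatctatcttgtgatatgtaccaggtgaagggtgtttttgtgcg
Ccng1: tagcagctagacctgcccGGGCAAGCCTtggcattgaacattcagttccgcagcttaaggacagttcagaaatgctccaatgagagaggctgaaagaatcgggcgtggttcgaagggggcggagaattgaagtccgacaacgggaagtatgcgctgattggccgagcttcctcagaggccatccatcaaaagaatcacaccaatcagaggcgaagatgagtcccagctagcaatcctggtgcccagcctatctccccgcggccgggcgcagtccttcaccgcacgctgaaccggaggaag
Gadd45a: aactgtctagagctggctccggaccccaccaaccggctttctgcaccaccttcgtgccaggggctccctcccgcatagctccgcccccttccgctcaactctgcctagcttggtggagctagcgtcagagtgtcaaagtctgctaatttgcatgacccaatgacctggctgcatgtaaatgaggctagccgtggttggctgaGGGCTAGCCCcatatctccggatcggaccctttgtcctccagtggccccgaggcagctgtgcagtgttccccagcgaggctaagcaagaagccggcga
The half-sites GAACATGTCT, GGGCAAGCCT and GGGCTAGCCC began 201, 232 and 48 bases before the start of transcription. A match of letters is a description of the sequence and not a measured binding site.

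No member was called changed at any dose. A call needed a 1.5-fold difference with an unadjusted p under 0.05 from limma, and 0.616% of all genes or probes met it at 600 ppm, 1.64% at 1000 ppm and 1.22% at 1500 ppm. Of the 8 genes, 0 met it at each dose by limma and 0 by the methods' t-test, and with no threshold on the fold the limma count was 0, 1 and 1, against 4.33%, 8.99% and 6.97% of all. The single gene was Gadd45a, at 1000 and 1500 ppm. The median log2 difference of the 8 genes from control was -0.03, 0.06 and 0.01 at the 3 doses, and that of all genes or probes was 0.00, 0.00 and 0.01. For 4 genes (Mdm2, Cdkn1a by its brighter probe, Bbc3 and Sesn2), all 3 intervals at 95% lay within 1.5-fold of control in either direction. For the other 4 (Ccng1, Gadd45a, Bax and Phlda3), at least 1 interval reached past 1.5-fold. These intervals come from the fit without a slide term, and control and high-dose rats shared no slide. With the slide as a fixed block, the 1500 ppm differences of Bbc3 and Cdkn1a (brighter probe) were 0.59 and 0.27, with standard errors of 0.38 and 0.29. In that fit the change of these 2 genes was not bounded within 1.5-fold. The 3 doses share their control rats, so the comparisons are not independent of each other. A lung sample holds many cell types, and in it fewer cells of a type and less RNA per cell cannot be told apart.

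**Figure D1:**
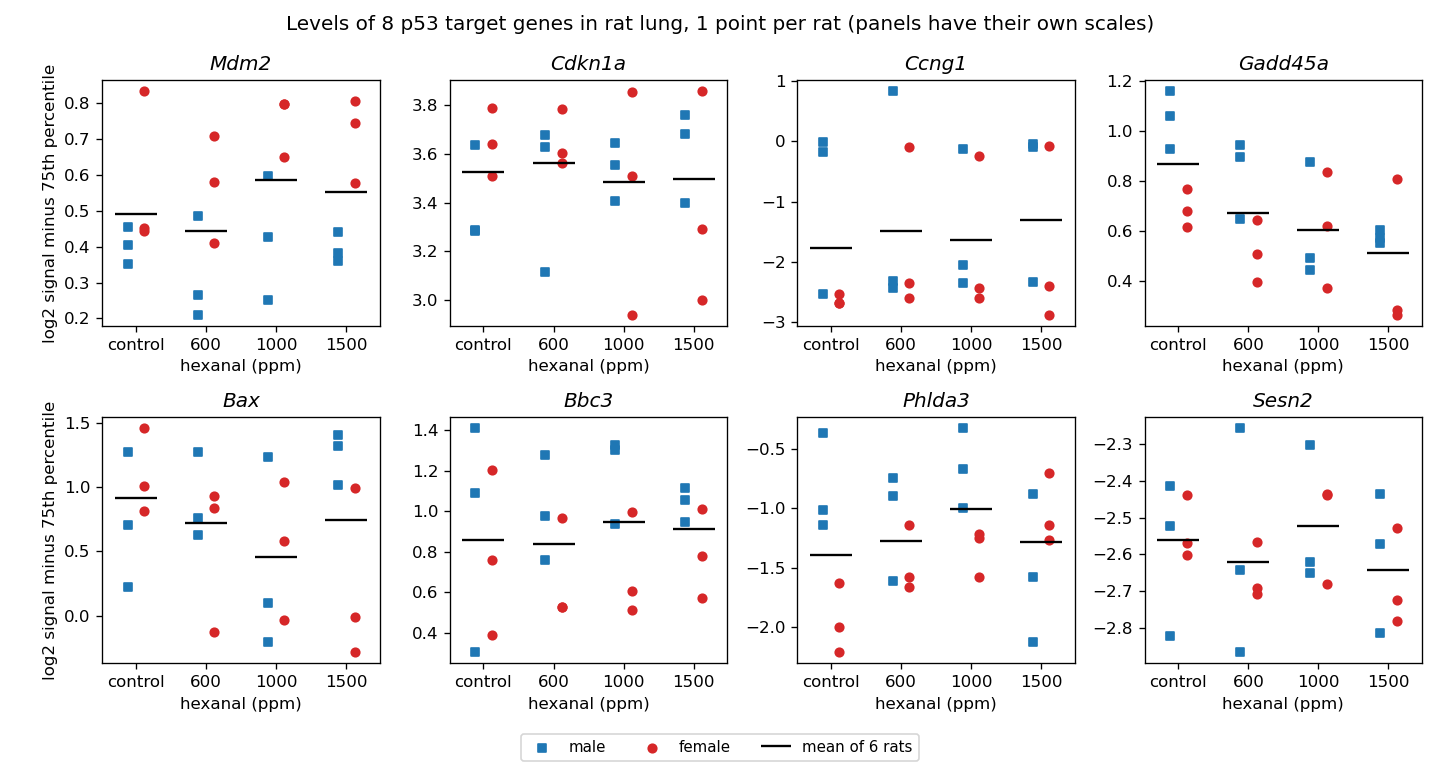
Levels of the 8 genes by dose (ppm), 1 point per rat with males as squares and females as circles, as log2 signal minus the 75th percentile of the array, with a line at the mean of each group of 6. The groups overlap for each gene, and the control mean of Gadd45a (0.87) is above the means of the 3 dose groups.

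Among the regulators of p53, Mdm2 (NM_001108099) ran from 0.35 to 0.83 on the log2 scale in control rats, with a median of 0.45. Low-dose rats ran from 0.21 to 0.71 (median 0.45), middle-dose rats from 0.25 to 0.80 (median 0.62) and high-dose rats from 0.36 to 0.81 (median 0.51). The 4 groups overlapped over most of their range, and no rat of a dose group was above the highest control rat. The differences from control were -0.05, 0.10 and 0.06, with a standard error of 0.11 each and adjusted p-values from limma of 0.997, 0.822 and 0.940. The intervals ran from -0.28 to 0.18, from -0.13 to 0.33 and from -0.17 to 0.29. In this fit, which had no slide term, a change as large as 1.5-fold lay outside each of them. The other probe of the gene, A_43_P16885, gave differences from control of -0.02, 0.15 and 0.12 (standard error 0.12).

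For arrest of the cell cycle, Cdkn1a (NM_080782), which encodes the inhibitor p21 of cyclin-dependent kinases and so slows entry into DNA synthesis, has a brighter probe, A_64_P123895, on which control rats ran from 3.29 to 3.79 (median 3.57). The low-dose, middle-dose and high-dose groups had medians of 3.62, 3.53 and 3.54, and ranges from 3.12 to 3.78, from 2.94 to 3.85 and from 3.00 to 3.86. Each dose group had 1 rat below every control rat, and the middle-dose and high-dose groups also had 1 above. The differences from control were 0.04, -0.04 and -0.03 (standard error 0.15), with adjusted p of 0.999, 0.955 and 0.980 from limma. The other probe of the gene, A_44_P914438, had a median of 2.73 in control rats (2.11 to 3.47) and medians of 2.43 (1.96 to 3.43), 2.30 (2.05 to 3.44) and 2.39 (1.57 to 2.61) from the low to the high dose. At the high dose 2 of 6 rats were below every control rat. Its differences were -0.16, -0.20 and -0.48 (standard error 0.30), the last with adjusted p = 0.783 by limma and p = 0.119 by the exact two-sided permutation test. The interval of that difference ran from -1.09 to 0.13, so in this fit the probe bounds the change of the gene less closely than the other. The fit and the exact test had no term for sex, and the sexes differed on this probe. Control males were at 3.03, 3.18 and 3.47 and high-dose males at 2.41, 2.55 and 2.61, on separate slides. Control females were at 2.11, 2.16 and 2.44 and high-dose females at 1.57, 2.00 and 2.37, also on separate slides.

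Over the 24 rats the 2 probes of Cdkn1a had a Pearson r of 0.09, and the 2 probes of Mdm2 an r of 0.47. Both probes of Cdkn1a were well above background on all 24 arrays. They also differed in the comparison of the sexes, which is given further on, so values of Cdkn1a are named here by probe. Which transcripts each probe detects was not tested.

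**Figure D2:**
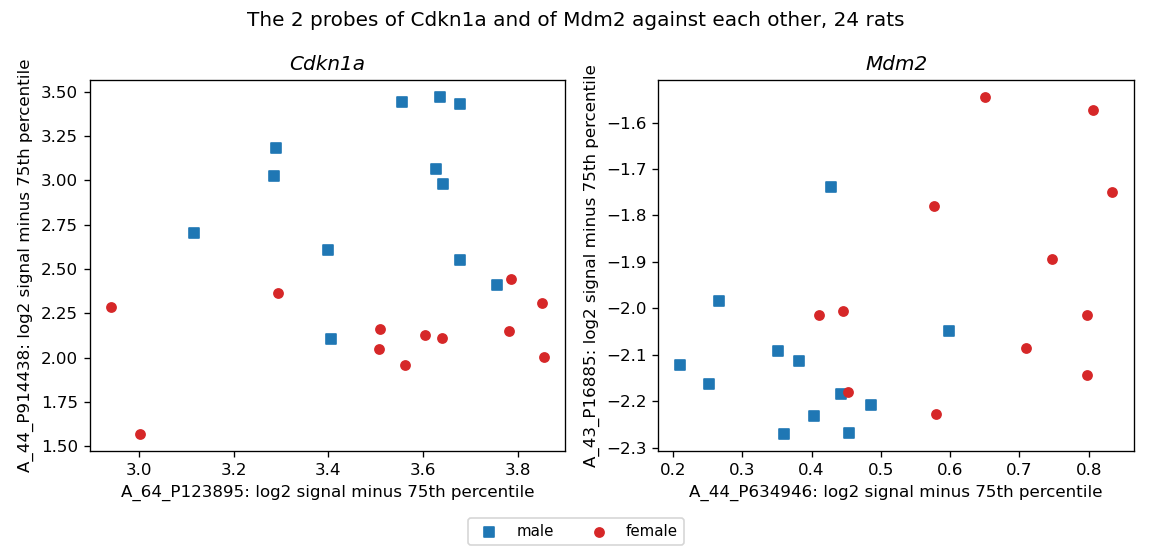
The 2 probes of Cdkn1a (left) and of Mdm2 (right) against each other in 24 rats, both axes in log2 signal minus the 75th percentile, males as squares and females as circles. On A_44_P914438 of Cdkn1a the males (median 3.00) are mostly above the females (median 2.14), and on A_64_P123895 the sexes share 1 range.

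Ccng1 (NM_012923) encodes cyclin G1, which takes part in the negative control of p53. Its level ran over 3.70 on the log2 scale among the 24 rats, the widest range of the 8 genes, and its spread within groups, an SD of 1.32, was larger than that of 99.4% of all genes or probes. The values lay in separate ranges, with 15 rats between -2.87 and -2.05, 9 rats between -0.24 and 0.83, and none in between. The upper range held 2 rats each of the control, low-dose and middle-dose groups and 3 rats of the high-dose group, and 6 males and 3 females. Medians were -2.53 in control rats (-2.68 to -0.01), -2.33 at 600 ppm (-2.59 to 0.83), -2.20 at 1000 ppm (-2.59 to -0.13) and -1.21 at 1500 ppm (-2.87 to -0.05). The differences from control were 0.28, 0.13 and 0.46 with a standard error of 0.73 and adjusted p of 0.997, 0.968 and 0.931 from limma, and with intervals as wide as -1.04 to 1.97 the dose comparison of this gene is weak. A single probe measures the gene. By position of the array on its slide, the upper range held 0 of 6 rats at position 1, 5 of 6 at position 2, 3 of 6 at position 3 and 1 of 6 at position 4. With position as a fixed block the differences from control were 1.01, 0.55 and 0.71, and with the slide as a fixed block -0.62, -0.91 and 0.03, so that the sign at 600 and 1000 ppm depends on the block. Leaving out 1 rat gave -0.19 to 0.63 at 600 ppm and -0.17 to 0.49 at 1000 ppm. None of these values was called. The gene with the most similar profile within groups, Nelfb, reached a Pearson r of 0.69.

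**Figure D3:**
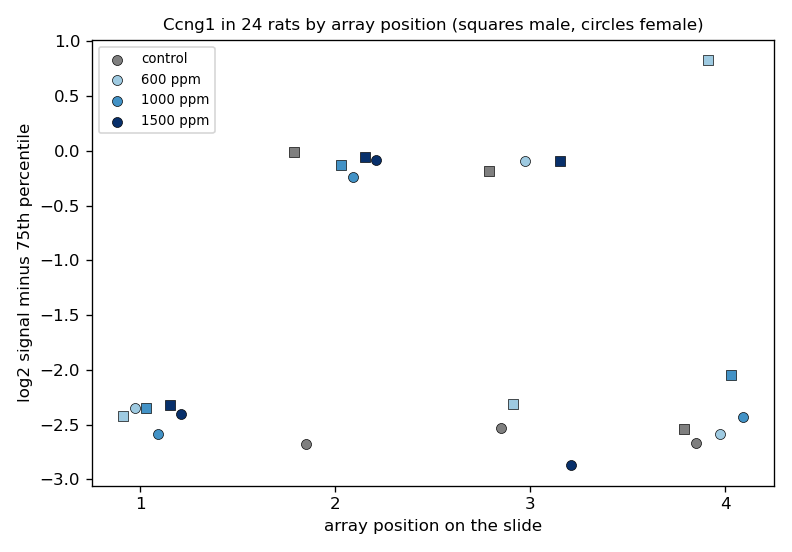
Ccng1 in 24 rats, as log2 signal minus the 75th percentile, against the position of the array on its slide, coloured by dose with squares for males and circles for females. No rat lies between -2.05 and -0.24, and each dose group has rats in both ranges.

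Gadd45a (NM_024127), a stress sensor that takes part in arrest and repair after DNA damage, was lower than control in its mean at each dose. Control rats ran from 0.62 to 1.16 (median 0.85), low-dose rats from 0.40 to 0.94 (median 0.65), middle-dose rats from 0.37 to 0.88 (median 0.56) and high-dose rats from 0.27 to 0.81 (median 0.56). At 1500 ppm 5 of 6 rats were below every control rat, and at 600 and 1000 ppm 2 and 3 were. The differences from control were -0.20, -0.26 and -0.35 with a standard error of 0.12, which at 1500 ppm is a level 1.28-fold lower. Unadjusted limma p-values were 0.117, 0.0402 and 0.0075 and adjusted ones 0.997, 0.538 and 0.553. The exact permutation p-values were 0.141, 0.0649 and 0.0173, two-sided, where the smallest that 6 rats against 6 allow is 0.00216. This was the 1 of 24 exact tests of the members with p under 0.05. The slope on dose was -0.23 per 1000 ppm (standard error 0.07, adjusted p = 0.424 from limma), and no member was called for a trend, as against 0.0141% of all genes or probes. None of these values passed correction over all genes or probes.

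Within slides, the higher dose had the lower Gadd45a level on 5 of 6 slides, by between 0.08 and 0.38, and the higher level on 1, by 0.13. Control and high-dose rats shared no slide. With the slide as a fixed block the difference at 1500 ppm was -0.44 (adjusted p = 0.983 from limma), and with each rat left out in turn and no block it ranged from -0.41 to -0.30. In the control group the males were at 0.93, 1.06 and 1.16 and the females at 0.62, 0.68 and 0.77. At 1500 ppm the males were at 0.55, 0.57 and 0.61 and the females at 0.27, 0.29 and 0.81. The difference from control at 1500 ppm was -0.47 in males and -0.24 in females, and these did not differ past the threshold (by 0.24, adjusted p = 0.570 from limma).

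Gadd45a is also known to respond to glucocorticoids and to stress, and the lists of such genes are given beside it. After subtraction of group means its level had a Pearson r of 0.68 with the mean of 6 glucocorticoid-responsive genes and of -0.70 with the mean of 9 circadian clock genes over 24 arrays. With the mean of 12 immediate early genes, which respond fast to handling and stress, r was 0.10. After subtraction of the means of group and sex these values were 0.55, -0.47 and 0.49, the last being -0.22 in the 12 males and 0.83 in the 12 females. At 1500 ppm 7 of the 9 clock genes were called, 5 higher and 2 lower, and 6 of the 12 immediate early genes were called lower. The called clock genes ran from 2.06 (Dbp) to -1.04 (Bmal1), so the clock mean and sum pool genes that moved in opposite directions. The share of all genes or probes called at that dose was 1.22%. In both lists 0 genes had an adjusted p-value under 0.05 from limma at 1500 ppm. Of the 6 glucocorticoid-responsive genes 1 was called lower at 1000 ppm and at 1500 ppm, Ddit4, an inhibitor of mTORC1 signaling (-1.33 and -1.43, standard error 0.43, adjusted p = 0.515 and 0.451 from limma). The summed level of the clock genes was between 5.78 and 10.8 in control rats and between 9.82 and 18.0 in high-dose rats, in units of the array's 75th percentile. That of the glucocorticoid-responsive genes was between 7.92 and 29.9 and between 10.9 and 20.2, and that of the immediate early genes between 38.4 and 108 and between 29.9 and 50.2. In females the glucocorticoid-responsive sum ran from 7.92 to 18.5 and in males from 15.5 to 29.9. The part of these genes in the Gadd45a values was not tested.

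**Figure D4:**
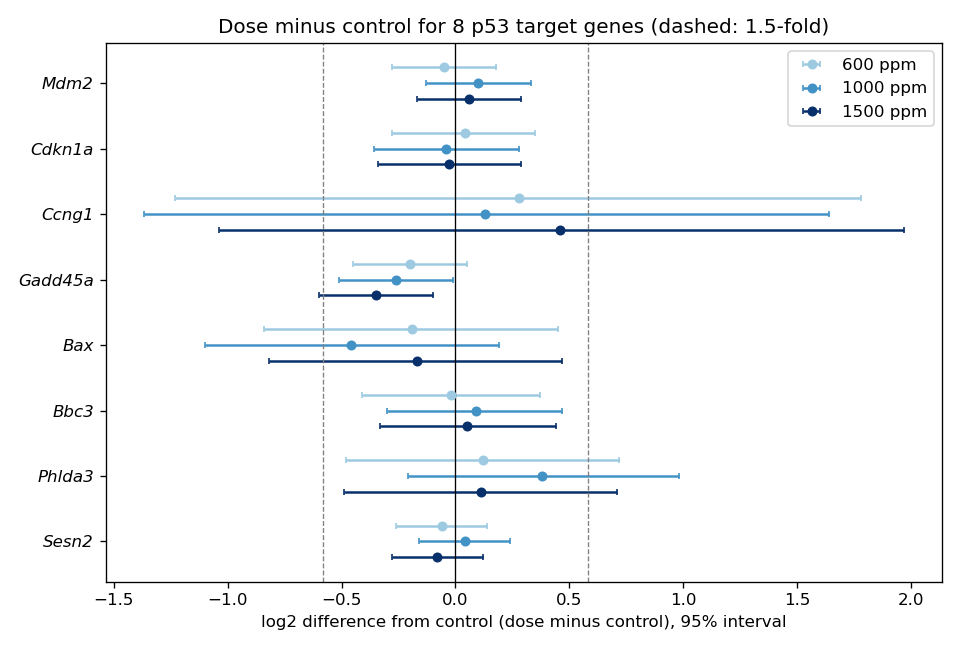
Log2 difference of each dose from control for the 8 genes, with points for the limma estimate, bars for the interval at 95% and dashed lines at 1.5-fold. Gadd45a has negative values at each dose (-0.20, -0.26 and -0.35), and the bars of Ccng1 are the widest.

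Of the genes for cell death, Bax (NM_017059), which opens the outer mitochondrial membrane, ran from 0.22 to 1.46 in control rats (median 0.91). Its medians at 600, 1000 and 1500 ppm were 0.80, 0.34 and 1.01, and the ranges of -0.13 to 1.28, -0.21 to 1.24 and -0.28 to 1.41 covered nearly all of the control range. The differences from control were -0.19, -0.46 and -0.17 (standard error 0.31; adjusted p = 0.997, 0.684 and 0.941 from limma). The spread of Bax within groups, an SD of 0.56, was larger than that of 91.8% of all genes or probes, whose median SD was 0.23. Bbc3 (NM_173837), also called Puma, encodes a protein that activates Bax. It ran from 0.31 to 1.41 in control rats (median 0.92), from 0.53 to 1.28 at 600 ppm (median 0.86), from 0.51 to 1.33 at 1000 ppm (median 0.97) and from 0.57 to 1.11 at 1500 ppm (median 0.98). Each dose group lay within the control range, and the differences were -0.02, 0.09 and 0.05 (standard error 0.19; adjusted p = 0.999, 0.915 and 0.970 from limma). Within slides the higher dose had the higher Bbc3 level on 6 of 6 slides, by between 0.04 and 0.30, and with the slide as a fixed block the difference at 1500 ppm was 0.59 (adjusted p = 0.983 from limma).

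Phlda3 (NM_001012206) encodes an inhibitor of the kinase Akt and so favours cell death after p53 activation. It ran from -2.21 to -0.36 in control rats (median -1.38), from -1.66 to -0.74 at 600 ppm (median -1.36), from -1.58 to -0.33 at 1000 ppm (median -1.11) and from -2.13 to -0.70 at 1500 ppm (median -1.21). The control group had the widest range, and only 1 rat, of the middle-dose group, was above its highest value. The differences from control were 0.12, 0.38 and 0.11 (standard error 0.29; adjusted p = 0.997, 0.713 and 0.962 from limma). Without control rat 3 the difference at 1000 ppm was 0.59 and met the threshold for a call. Sesn2 (NM_001109358), a sestrin that restrains mTORC1 signaling and counters oxidative stress, had a spread within groups (SD 0.17) below the array's median. Its control values lay between -2.82 and -2.41 (median -2.55), those at 600 ppm between -2.87 and -2.26 (median -2.67), at 1000 ppm between -2.68 and -2.30 (median -2.53) and at 1500 ppm between -2.81 and -2.43 (median -2.65). The groups overlapped, and the differences were -0.06, 0.04 and -0.08 (standard error 0.10; adjusted p = 0.997, 0.926 and 0.899 from limma).

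The effect of 1500 ppm on Phlda3 differed between the sexes. Control males were at -1.14, -1.01 and -0.36 and high-dose males at -2.13, -1.57 and -0.88. Control females were at -2.21, -1.99 and -1.63 and high-dose females at -1.27, -1.14 and -0.70. In females the 2 groups did not overlap, and in males they overlapped by 1 rat of the high-dose group. The difference from control was -0.69 in males and 0.90 in females, and the difference between these effects was 1.59 (standard error 0.42, adjusted p = 0.0351 from limma). Phlda3 was the 1 of 8 members called in this test, in which 5.02% of all genes or probes were called, 1.2% with the sign of Phlda3. At 600 and 1000 ppm no member was called for such a difference, and neither was any other gene or probe (0%). The call was lost with the normexp background correction (1.12, adjusted p = 0.212), without scaling between arrays (1.44, adjusted p = 0.0913), with the slide as a random block (1.76, adjusted p = 0.0761) and without any 1 of 8 rats, 4 control and 4 high-dose, when each of the 24 was left out in turn (1.29 to 1.92). The control and high-dose rats of each sex lay on separate slides, linked only through slides shared with the other doses. Dose and slide are therefore poorly separated here. Within slides, the higher dose differed from the lower by 0.81, 0.39 and 0.54 in females. In males it did so by -0.78, -0.02 and -1.20, with 1 to 3 rats per dose on a slide. Each slide held rats of 1 sex, and this test was not run with the slide as a fixed block.

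Bax at 1500 ppm differed from control by 0.52 among males and by -0.86 among females, which did not pass the test. High-dose males were at 1.02, 1.32 and 1.41 and control males at 0.22, 0.71 and 1.27, while high-dose females were at -0.28, -0.01 and 0.99 and control females at 0.81, 1.01 and 1.46. The rats of the 2 groups overlapped in each sex and lay on separate slides. The difference of the effects, -1.38 (standard error 0.57), had an adjusted p of 0.181 from limma. Array weights brought it to -1.75 with an adjusted p of 0.0309 from limma. In that fit 12.3% of all genes or probes were called, against 5.02% without the weights.

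Between females and males, averaged over the 4 groups, 2 of the 8 genes differed at an adjusted p-value under 0.05, as did 26.5% of all genes or probes, 16.7% higher and 9.88% lower in females, so that the members did so at about the rate of the array. Mdm2 was between 0.41 and 0.83 in females (median 0.68) and between 0.21 and 0.60 in males (median 0.39). Female values were mostly above the male ones with some overlap, and the difference was 0.26 (standard error 0.06, adjusted p = 0.00281 from limma). On the other probe of Mdm2 it was 0.18 (adjusted p = 0.0689), and without scaling between arrays 0.10 (adjusted p = 0.444). Phlda3 was between -2.21 and -0.70 in females (median -1.42) and between -2.13 and -0.33 in males (median -0.95), a difference of -0.42 (standard error 0.15, adjusted p = 0.0461 from limma). It was no longer called in 16 of the 24 fits without 1 rat (-0.49 to -0.34), with the slide as a random block (adjusted p = 0.124) or with normexp (-0.26, adjusted p = 0.242). This average hides a change of sign. Mean Phlda3 was lower in females in the control group (-1.94 against -0.84) and at 600 and 1000 ppm, and higher in females at 1500 ppm (-1.04 against -1.53). Gadd45a (-0.20, adjusted p = 0.0532 from limma) and Bbc3 (-0.30, adjusted p = 0.0748) had lower means in females without passing the threshold. Without scaling between arrays both passed it (Gadd45a -0.36, adjusted p = 0.0355, and Bbc3 -0.47, adjusted p = 0.00606, both from limma). Bbc3, Gadd45a and Phlda3 were then called and Mdm2 was not, beside 22.8% of all genes or probes. Since each slide held rats of 1 sex, sex and slide cannot be told apart in any of these values.

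For Cdkn1a the answer depended on the probe. On A_64_P123895 females were between 2.94 and 3.86 (median 3.58) and males between 3.12 and 3.76 (median 3.59), a difference of 0.02 (adjusted p = 0.898 from limma). On A_44_P914438 females were between 1.57 and 2.44 (median 2.14) and males between 2.10 and 3.47 (median 3.00). There the sexes overlapped only between 2.10 and 2.44, and the difference was -0.79 (standard error 0.13, adjusted p = 0.00034 from limma). With the mean of both probes it was -0.38. The use of the second probe alone was chosen after its values were seen.

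The levels of Mdm2 on its brighter probe ran with or against those of several marker lists, among them lymphocyte markers. After subtraction of group means the Pearson r of Mdm2 with the mean of 6 T and B cell markers was 0.90 over 24 arrays (Spearman rho 0.89). It was 0.89 without the 2 rats farthest from the median. After subtraction of the means of group and sex it was 0.68 in the 12 males and 0.86 in the 12 females. The values against endothelial and alveolar type I markers were -0.85 and -0.86 within groups. Those against macrophage and erythroid markers were -0.79 and -0.72, and those against club and ciliated markers 0.72 and 0.70. With the means of group and sex subtracted, r was 0.78 for T and B cell markers. It was then -0.77 for endothelial, -0.72 for alveolar type I, 0.66 for club and 0.69 for ciliated markers. For macrophage and erythroid markers it fell to -0.48 and -0.45. The link is thus not particular to lymphocyte markers. All rats shared the array scaling, and those of a slide shared hybridization. Of the 6 T and B cell markers tested, 5 were higher in females at an adjusted p-value under 0.05, and their summed level was between 2.45 and 5.15 in females and between 1.53 and 2.93 in males, in units of the array's 75th percentile. None of the 6 was called at any dose by limma, and none had an unadjusted p under 0.05. The part of lymphocytes in the Mdm2 difference between the sexes was not tested.

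**Figure D5:**
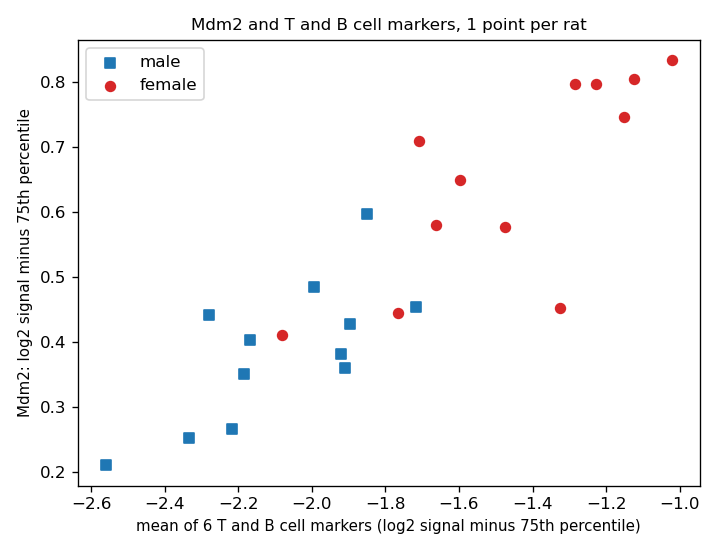
Mdm2 level against the mean of 6 T and B cell markers, both as log2 signal minus the 75th percentile, 1 point per rat with males as squares and females as circles. Rats with higher marker levels have higher Mdm2 in both sexes, and most females are at the upper right.

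The 8 genes did not vary together from rat to rat. Over the 28 pairs, Pearson r after subtraction of group means ran from -0.68 (Mdm2 and Bbc3) to 0.56 (Gadd45a and Bax), with a median of 0.01 and 15 pairs above 0. The genes with the most similar profiles among 12411 others were Ptpn22 for Mdm2 (r = 0.92), Ptms for Cdkn1a by its brighter probe (0.94), Fahd1 for Gadd45a (0.86), Ubn1 for Bax (0.94), Agpat4 for Bbc3 (0.92), Ppp1r37 for Phlda3 (0.93) and Stc1 for Sesn2 (0.73), each over 24 arrays. The next in order were Lrrc73 and Lrrc56 for Mdm2, Hmx1 and Twnk for Cdkn1a, Inafm1 and Xrcc4 for Ccng1, Ube2g2 and Utp11 for Gadd45a, Trappc5 and Nsrp1 for Bax, Kif3b and Usp42 for Bbc3, Pi4k2a and Zbtb20 for Phlda3, and Ess2 and Ntmt1 for Sesn2, with r between 0.66 and 0.93 except for Xrcc4 (0.64). No member was among the closest genes of another.

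The wider p53 pathway gave few calls. Of 102 other genes of p53 control, arrest, death, repair and damage signalling, 81 were on the array and 79 were tested. At 600 ppm 1 was called higher and 1 lower, at 1000 ppm 1 was called higher, and at 1500 ppm 1 was called lower, which is 2.53%, 1.27% and 1.27% of the 79 genes beside the shares of all genes given above. The median differences were -0.05, -0.05 and -0.01, and 0 of the 79 had an adjusted p-value under 0.05 at any dose by limma. An unadjusted limma p under 0.05 was found for 9, 8 and 7 of the 79 genes. Of all 21255 genes or probes 920, 1910 and 1481 had one (4.33%, 8.99% and 6.97%). The share of the 79 was thus above that of all at each dose, most so at 600 ppm. The 15 family members of the genes described here had 0 calls at each dose, as did the 10 genes of damage signalling, the 8 of repair and metabolism and the 12 of base excision and mismatch repair.

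The called genes were spread over the lists for arrest, death and crosslink repair. Gtse1, which restrains p53 in the cell cycle, was between -3.76 and -2.09 in the control group and between -2.94 and -2.02 at 1000 ppm, a rise of 0.64 (standard error 0.26, adjusted p = 0.515 from limma) that was not called with the slide as a random block or by the methods' t-test. Btg2, an antiproliferative target of p53 that is also an immediate early gene, differed by -0.75 at 1500 ppm (standard error 0.20, adjusted p = 0.349), beside the immediate early genes given above. Fancd2, of the Fanconi crosslink repair pathway, differed by 0.97 at 600 ppm (standard error 0.44, adjusted p = 0.997) from 5 of 6 low-dose arrays, since 1 spot was marked as an outlier, and 4 of those arrays were well above background. Pmaip1, also called Noxa, was well above background on 5 of 6 control arrays and on 0 of 6 low-dose arrays. The limma call used the measured signals (-1.34, adjusted p = 0.997), although none of the low-dose ones was well above background. With each low-dose array set to the dimmest signal still well above background, or to the probe's own where higher, the mean was -6.43. Set against the control mean of -6.25, this bounds the fall at 1.13-fold or more, and no test was run on the bound. That bound is under the 1.5-fold of the call, Pmaip1 passed the filter on dim probes through the control group alone, and with a filter on all 24 arrays it was not tested. Between the sexes 16 of the 79 genes differed at an adjusted p-value under 0.05, 8 in each direction, beside 26.5% of all genes or probes. The 1500 ppm effect differed between the sexes for 1 of the 79, beside 5.02% of all, and this was Rchy1, a ubiquitin ligase of p53 (-0.75, adjusted p = 0.0032 from limma).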

How the data were processed

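Lung mRNA of 24 rats (6 per group) was measured on Agilent arrays. The authors deposited spot intensities from Agilent Feature Extraction 11.5.1.1, background-subtracted and not scaled between arrays, and a table of the same intensities. The 75th percentile signal was between 1701 and 3133, and 70.7% to 81.8% of probes were well above background. Control and outlier spots were dropped, spots of a probe averaged, and log2 values taken relative to the array's 75th percentile. Probes were named by accession through RefSeq's GRCr8 table (18355 of 30367 probes), the array's build being RGSCv3.4 per the file headers, and kept if 5 of the 6 arrays in some group were well above background (23616 probes). The brightest probe stood for a gene. Doses, a dose slope, sex and its interaction with dose were tested with limma 3.58.1 in R 4.3.3 (lmFit and eBayes, Benjamini-Hochberg over 21255 features), and fits were tested on simulated data. Each member and dose also had an exact permutation test. Figures used matplotlib. Alternatives changed the background correction, scaling, filter, probe, test, samples, covariates, slide or position blocks, weights and threshold, and left out each rat. The members and lists were chosen with earlier results of these data known. All 9 members are named, with called genes of the other lists (at most 4 per list and dose) and the 3 closest profiles per member. Markers of alveolar, club, ciliated and endothelial cells were present; 10 of 11 heart muscle genes passed too, with a summed level of 3.46 to 37.9 in control rats and 8.63 to 134 at 1000 ppm, and their part in the results was not tested. Labels do not say more of how rats were replicated, so p-values measure the spread between these samples. The number of arrays limits precision. The list of p53 regulators is not reported here on its own.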

Additional observations from a re-analysis of the deposited data

Results flagged for a closer look

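In 2 of 32 groups of 6 rats, 1 rat lay far from the other 5, where chance gives about 1 in 20. Control rat 22, a female, had the highest Mdm2 level of its group (0.83, with the next rat at 0.45), and the gap was 0.787 of the range. Low-dose rat 6, a male, had the lowest Cdkn1a level on the brighter probe (3.12, with the next at 3.56), and the gap was 0.669 of the range. The effect of 1500 ppm on Phlda3 differed between females and males by 1.59 (adjusted p = 0.0351 from limma). That fit had no slide term, and control and high-dose rats shared no slide.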

How the results depend on the processing

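No member was called at 600 ppm or for the dose trend under any setting run, nor for a sex difference of the 600 or 1000 ppm effect. With no fold threshold 1 member was called at 1000 ppm and 1 at 1500 ppm (Gadd45a). With a rat left out in turn the count at 1000 ppm was 0 to 1 (Phlda3, without control rat 3, where 1.95% of all genes or probes were called). Members called between the sexes were 2, beside 26.5% of all genes or probes. They became 1 with normexp, no filter on dim probes or the slide as a random block (10.6%, 20.2% and 14.8% of all). They became 4 with median centring or array weights (Bbc3 and Gadd45a added, 28.5% and 34.4% of all). Without scaling they were 3 (Bbc3 and Gadd45a added, Mdm2 lost, 22.8% of all). With a rat left out they were 1 to 3 (21.9% to 29.1% of all). Members called for a sex difference of the 1500 ppm effect were 1, beside 5.02% of all genes or probes. The count became 0 with normexp, without scaling or with the slide as a random block (1.57%, 4.41% and 1.46% of all). With array weights it was 2 (Bax added, 12.3% of all). It was 0 to 1 with a rat left out (2.99% to 5.75% of all). The count was 0 without control rat 1, 3, 22 or 23 or high-dose rat 16, 17, 36 or 37. The female minus male difference of Cdkn1a turned from 0.02 to -0.383 with the mean of its probes and to -0.787 on its other probe, an alternative chosen after seeing the data. Other pathway genes called at 600 ppm fell from 2 to 0 with normexp or a filter on all 24 arrays (0.188% and 0.267% of all). They fell to 1 with the slide as a random block or the methods' t-test (0.696% and 0.409% of all). At 1000 ppm they fell from 1 to 0 with the random block or the t-test (1.19% and 1.41% of all). At 1500 ppm they rose from 1 to 3 with the slide as a fixed block (Btg2, Hus1 and Phlda1, all lower, 1.91% of all). The causes were not tested. No paired analysis was possible because the groups share no rat numbers. Slide as a fixed block could not be fitted for the female minus male comparison, since each slide holds 1 sex. It was not run for the sex differences of a dose effect. Small changes of the widely spread genes, Ccng1 above all, were not detectable with 6 arrays per group.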
